A study of Mus musculus with 6 samples.

Results

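The ETS transcription factors are a family defined by the ETS domain, a winged helix-turn-helix fold that binds DNA around the core letters GGAA. Members differ in the signals they answer to and in whether they activate or repress. Etv5 and Etv4 belong to the PEA3 subfamily of activators downstream of FGF and ERK signalling, Etv6 is a repressor, Ets1 and Ets2 are activators with an ERK-responsive Pointed domain, Elf1 and Elf2 form the ELF subfamily, and Elk3 is a ternary complex factor that partners with SRF. Erg and Fli1 are best known in endothelial and blood cells.

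Open chromatin at the genes of this family was examined in mouse liver by ATAC-seq, in which a transposase inserts adapters into accessible DNA. The labels give 2 groups of 3 liver samples: controls, titled Ad-EGFP after a green fluorescent protein, and samples titled Ad-Dyrk1b with overexpression of the kinase Dyrk1b. All titles begin with Ad-, which the labels do not spell out, and the sources used here do not give strain, sex, age or time after treatment. The labels do not say that replicates were separate animals, so the spread that p-values measure here may be technical. Members were all peaks whose gene symbol is 1 of 10 ETS genes, which gave 18 of the 22412 peaks, at 8 genes. Erg and Fli1 were not analysed here, since no peak analysed carries their symbol. The peak in intron 5 of Etv5 was chosen because it differed between these same groups, so its values are a description and carry no test. The other 17 peaks came in through their gene symbol.

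The reads in peaks came to between 762633 and 1267934 per library, with a median of 26 to 47 reads per peak, so single peaks rest on few reads. Reads assigned to the overexpressed gene numbered 10, 1 and 3 in controls and 27, 30 and 53 in Dyrk1b libraries at its exon 9 peak. At its other peak they numbered 9, 9 and 9 in controls and 33, 28 and 39 in Dyrk1b libraries. The origin of these reads was not tested. Of 6 hepatocyte marker genes, 4 had peaks, among them the albumin gene Alb and the lineage factor gene Hnf4a, while Ttr and Cps1 had none in the set analysed. No pair of libraries agreed within sampling noise (chi-square over its degrees of freedom, 2.19 to 4.39).

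Promoter sequences are shown for the 2 members whose starts matter most to the results: Etv5, which holds the chosen peak, and Elf2, which has peaks at 2 starts. They come from RefSeq (GRCm38.p6) and run from 250 bases before to 50 bases after a start. Capitals mark the ETS core GGAA on either strand (GGAA or TTCC). The deposited coordinates follow a build that is not named and do not match this one, so peaks and windows are related only by their distance to a gene start.

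Etv5 outer start, chr16:22439521-22439820, minus strand: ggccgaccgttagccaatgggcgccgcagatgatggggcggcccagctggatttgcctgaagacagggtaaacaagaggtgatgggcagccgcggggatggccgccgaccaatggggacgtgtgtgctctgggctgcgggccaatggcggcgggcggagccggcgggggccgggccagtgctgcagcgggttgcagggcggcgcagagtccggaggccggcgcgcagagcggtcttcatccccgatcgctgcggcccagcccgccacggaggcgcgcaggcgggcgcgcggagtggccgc

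Etv5 inner start, chr16:22438319-22438618, minus strand: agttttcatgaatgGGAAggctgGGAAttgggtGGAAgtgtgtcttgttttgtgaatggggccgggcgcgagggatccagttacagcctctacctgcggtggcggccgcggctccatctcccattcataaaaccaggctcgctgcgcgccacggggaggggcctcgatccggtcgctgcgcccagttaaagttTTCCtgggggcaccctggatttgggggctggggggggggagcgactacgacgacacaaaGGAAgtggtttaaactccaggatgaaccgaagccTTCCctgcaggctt

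Elf2 outer start, chr3:51340595-51340894, minus strand: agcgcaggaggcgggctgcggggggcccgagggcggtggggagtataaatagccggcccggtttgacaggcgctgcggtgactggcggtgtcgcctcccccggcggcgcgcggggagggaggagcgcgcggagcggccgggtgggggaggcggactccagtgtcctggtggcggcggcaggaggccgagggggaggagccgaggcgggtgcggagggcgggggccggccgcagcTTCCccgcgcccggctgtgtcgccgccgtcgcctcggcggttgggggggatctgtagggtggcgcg

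Elf2 inner start, chr3:51277465-51277764, minus strand: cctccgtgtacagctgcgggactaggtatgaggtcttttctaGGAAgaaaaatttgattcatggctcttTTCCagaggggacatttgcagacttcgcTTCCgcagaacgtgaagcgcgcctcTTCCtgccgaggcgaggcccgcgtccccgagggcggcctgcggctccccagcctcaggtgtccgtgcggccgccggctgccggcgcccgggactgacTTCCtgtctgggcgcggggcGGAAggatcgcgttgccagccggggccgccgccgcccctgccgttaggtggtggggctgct

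The windows of each gene differ in ETS core matches. The outer Etv5 window has 0 matches and a GC content of 74.0%, and the inner one, 1202 bases downstream, has 6 matches and 60.0% GC. At Elf2 the outer window has 1 match (78.7% GC) and the inner one 6 (67.0% GC). Of 32851 windows in the table, 96.0% hold at least 1 GGAA on either strand. The longer run CCGGAA, which contains the core, occurs in 14.9% of all windows and CCGGAAGT in 3.89%, and neither occurs in any of the 12 windows of the 7 members that have one (Etv5, Etv6, Ets2, Erg, Elf1, Elf2 and Elk3). A match is a stretch of letters and no binding site was measured.

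Etv5 had 2 peaks. The intron 5 peak (chromosome 16, 22247571 to 22248370, intron 5 of 12, 10099 to 10898 bases downstream of the start, gene ENSMUSG00000013089) held 20, 19 and 25 reads in control libraries 1, 2 and 3, and 51, 61 and 64 in Dyrk1b libraries 1, 2 and 3. Scaled to the reads in peaks by TMM (CPM, a peak's share of the reads in peaks on a fixed scale), that was 23.4, 23.1 and 33.6 CPM in controls against 67.7, 67.3 and 49.1 CPM in the Dyrk1b group. Every Dyrk1b library lay above every control library, and Dyrk1b 3, the most deeply sequenced, was the lowest of its group. The means were 26.7 ± 5.98 and 61.4 ± 10.6 CPM (SD, n = 3 per group), a fitted log2 change of 1.19 ± 0.29 (SE). On its RPKM scale, the authors' deposited table lists a log2 ratio of 1.34 here. In liver tissue, a change in the share of cells of a type and a change in accessibility per cell cannot be told apart.

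The promoter peak of Etv5 (22258186 to 22258878) covers, by distance to the start, the outer window printed above, from position -409 to position 283 around the deposited start. It held 76.2, 57.1 and 49.7 CPM in controls against 54.4, 48.5 and 56.1 CPM in the Dyrk1b group. The groups overlapped, and the log2 change was -0.21 ± 0.25 (adjusted p = 0.727 over all 22051 peaks tested by edgeR's quasi-likelihood test). That value was -0.01 without control 1 and -0.33 without control 3. The deposited gene model is 58411 bases long and the RefSeq one, measured to the outer start, 58258, so by gene length the deposited start is nearer the outer start, whose window lacks the ETS core.

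A ratio within each library needs no scaling between libraries. For every read in the Etv5 promoter peak, the intron 5 peak held 0.308, 0.404 and 0.676 reads in controls and 1.24, 1.39 and 0.877 with Dyrk1b. The intron peak thus held fewer reads than the promoter in all 3 controls and more in 2 of the 3 Dyrk1b libraries. Set against all 17 other family peaks, it held 24.5, 25.03 and 39.4 reads per 1000 reads in controls and 79.3, 75.8 and 57.8 with Dyrk1b (29.6 ± 8.43 and 71.0 ± 11.6, SD, n = 3 per group). The other 17 peaks together held 957, 922 and 854 CPM in controls against 853, 888 and 851 CPM in the Dyrk1b group, so their sum was not higher in the Dyrk1b group. Per kilobase of peak, the Etv5 intron 5 peak ranked last of 18 in each control library, and 8th, 8th and 15th in Dyrk1b libraries 1, 2 and 3. These ratios and ranks use the values that the peak was chosen on and are a description.

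**Figure D1:**
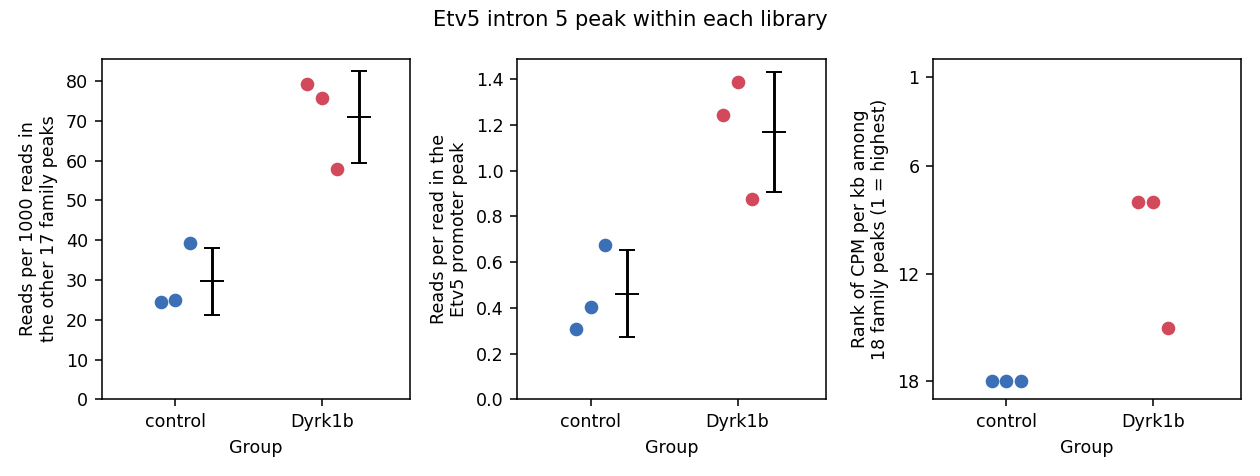
The Etv5 intron 5 peak within each library, by group: reads per 1000 reads in the other 17 family peaks (left), reads per read in the Etv5 promoter peak (middle), and rank of CPM per kilobase among the 18 family peaks (right). Points are libraries in the order of their replicate numbers and black marks with bars are mean ± SD (n = 3); the Dyrk1b libraries lie above the controls in the first 2 panels, and the rank goes from 18 in every control to 8, 8 and 15.

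Other peaks around Etv5 had values in both directions. Within 500 kb of the intron 5 peak there were 13 other peaks, of which 6 had positive log2 changes, with a median of -0.01 and a range from -0.80 to 1.01. The nearest peaks beyond Etv5 were at Dgkg, a diacylglycerol kinase gene upstream at -119 kb (log2 change 0.50 ± 0.39), and at the start of Igf2bp2, an RNA-binding protein gene 266 kb downstream (1.01 ± 0.49). The Igf2bp2 peak held 1, 14 and 16 reads in controls and 18, 26 and 34 with Dyrk1b, so its value rests in part on control 1.

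**Figure D2:**
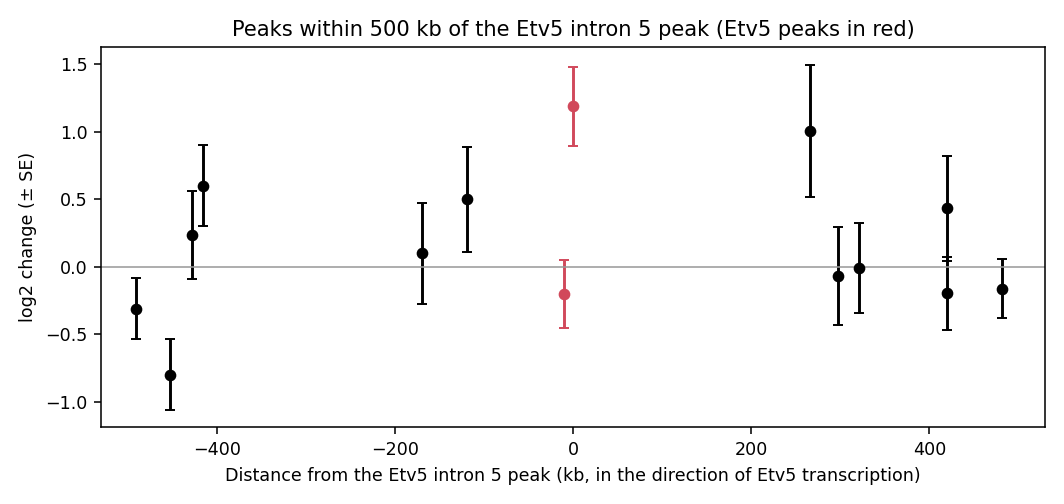
The fitted log2 change (± SE) of each peak within 500 kb of the Etv5 intron 5 peak, by distance in the direction of Etv5 transcription. The Etv5 intron 5 peak at 0 (1.19) and the Etv5 promoter peak (-0.21) are red; the 13 peaks other than the intron 5 peak run from -0.80 to 1.01.

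Over the family, 0 of 18 peaks passed an adjusted p of 0.05, where 0.0317% of all peaks did (7 of 22051 by edgeR). DESeq2 called 0 as well and gave no adjusted p for 11 of the 18. At an unadjusted p under 0.05, 1 of 18 was higher with Dyrk1b (6.44% of all peaks), the peak chosen on this contrast, and 2 were lower (7.72%). Apart from the Etv5 intron 5 peak, adjusted p ran from 0.275 to 0.989, 7 of 17 log2 changes were positive, and they lay between -0.89 and 0.66. The median of all 18 was -0.10 (-0.20 for the 17 without the Etv5 intron 5 peak), beside 0.0047 for all peaks tested. Of the 18, 8 were positive, beside 50.5% of all peaks. Scaled to the library totals behind the authors' RPKM values, which moved the median of all peaks to 0.17, the median of the 18 was 0.06, so the sign of this median depends on the scaling. The groups did not overlap at 3 peaks that were higher with Dyrk1b (9.53% of all peaks) and 2 that were lower (9.97%), of 18 in each case. Above were Etv5 intron 5, which was chosen on this contrast, Ets1 intron 3 and the smaller Elf2 intron 4 peak. Below were Elk3 intron 1 and the distal Etv6 intron 2 peak. Scaled to the library totals, 3 of 18 were apart above, beside 10% of all peaks (2211 of 22051), and 0 below, beside 2.81% (619). With 18 peaks, these counts are too small to set the family apart from those shares.

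**Figure D3:**
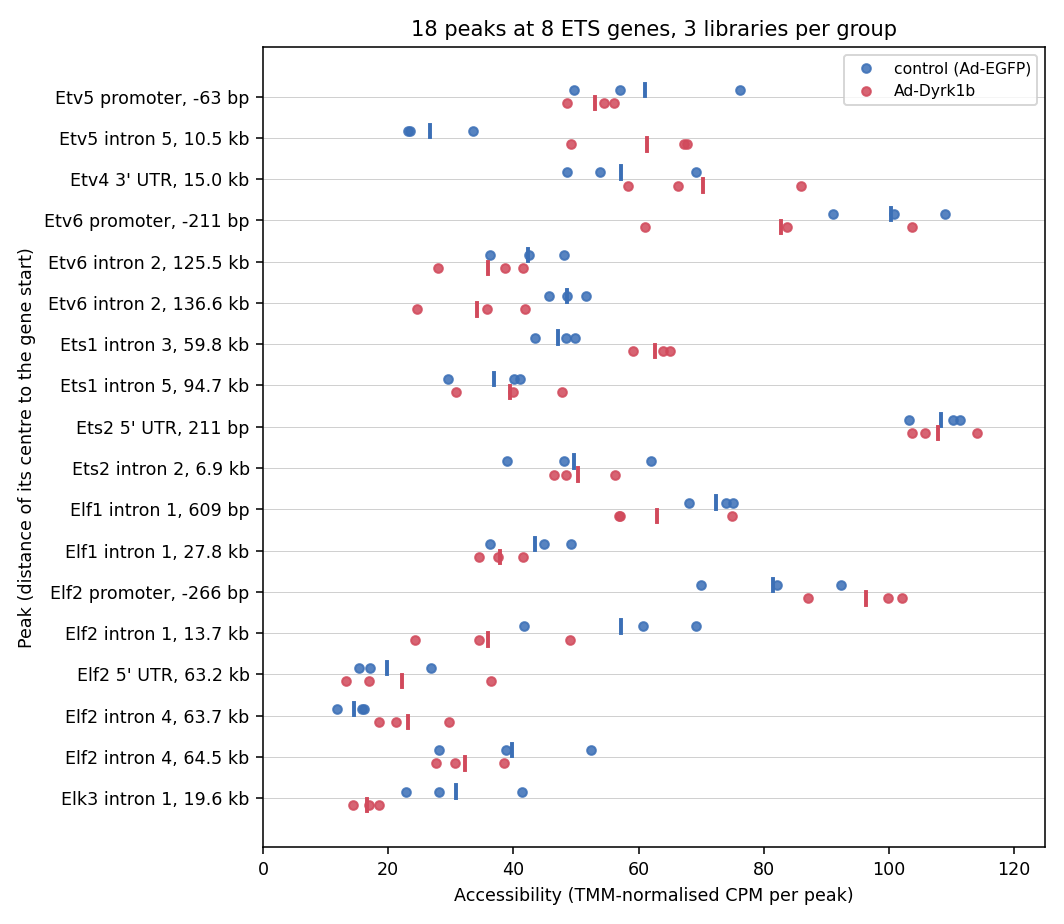
TMM-normalised CPM of each of the 18 peaks in each library, with the gene, part of the gene and distance of the peak's centre to the gene start; blue points are control and red points Dyrk1b libraries, and vertical marks are group means. The groups lie apart at 5 peaks, and at the Ets2 start the 6 libraries lie between 103 and 114 CPM.

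Etv4, the other PEA3 member, had a single peak, at its 3' UTR (chromosome 11, 101660725 to 101661462, 15043 bases from the start). It held 69.2, 48.6 and 53.8 CPM in controls against 66.4, 86.0 and 58.4 CPM in the Dyrk1b group. The libraries of the groups were interleaved, and the log2 change was 0.28 ± 0.25 (adjusted p = 0.598 by edgeR). It was 0.45 without control 1, 0.18 without control 2 and 0.11 without Dyrk1b 2.

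Etv6, the repressor, had 3 peaks, and all had negative values. Its promoter peak (chromosome 6, 134011811 to 134013094) held 109, 91.1 and 100.8 CPM in controls against 61.0, 83.8 and 103.7 CPM in the Dyrk1b group. Dyrk1b 1 and 2 stood below all controls there while Dyrk1b 3 lay within their range, and the log2 change was -0.25 ± 0.22 (adjusted p = 0.601 by edgeR). Left out in turn, Dyrk1b 1 and Dyrk1b 3 moved it to -0.08 and -0.46. Of its intron 2 peaks (of 7 introns), the distal one (134148919 to 134149540, 136.6 kb from the start) held 51.6, 48.6 and 45.7 CPM in controls against 35.8, 41.9 and 24.6 CPM in the Dyrk1b group. All Dyrk1b libraries were below all controls at that peak, with a log2 change of -0.54 ± 0.29 (adjusted p = 0.396), which was -0.31 without Dyrk1b 3. The other, 125.5 kb from the start, had -0.22 ± 0.30, which was -0.11 without control 1, -0.07 without Dyrk1b 1 and -0.33 without Dyrk1b 3. Summed over the 3 peaks, Etv6 held 191 ± 15.1 CPM in controls against 153 ± 24.5 CPM in the Dyrk1b group (SD, n = 3 per group). The size of these values depends on the scaling. Scaled to the library totals, the log2 changes were -0.06 at the promoter, -0.03 at 125.5 kb and -0.38 at the distal peak, where the median of all peaks was 0.17.

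Ets1, which acts in lymphoid and endothelial cells among others, had peaks in introns 3 and 5 of 9 and none at its start. The intron 3 peak (chromosome 9, 32606967 to 32607639, 59.8 kb from the start) held 43.4, 49.8 and 48.4 CPM in controls against 65.0, 64.0 and 59.1 CPM in the Dyrk1b group. The groups lay apart by more than either spread, the log2 change was 0.41 ± 0.25, and it missed the threshold (adjusted p = 0.457 by edgeR). The intron 5 peak, 94.7 kb from the start, had 0.09 ± 0.30, a sign that turned without control 3 or Dyrk1b 1.

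Ets2 had the most accessible peaks of the family per kilobase and the smallest differences. The peak over its start (chromosome 16, 95502630 to 95503676, classed as 5' UTR) held 111, 103 and 110.2 CPM in controls against 114, 106 and 103.7 CPM in the Dyrk1b group. The means were 108 ± 4.40 and 108 ± 5.52 CPM (SD, n = 3 per group), with a log2 change of -0.01 ± 0.21, whose sign turned with several settings. The intron 2 peak, 6.9 kb from the start, had 0.02 ± 0.27. Standard errors of this size set how small a change could have been seen at these peaks.

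The ELF members had 7 peaks. Elf1 held 2 in intron 1 of 8, at 609 bases from its start (chromosome 14, 79718830 to 79719656; 75.0, 68.0 and 73.9 CPM in controls, 57.1, 75.0 and 56.8 CPM with Dyrk1b) and at 27.8 kb. Both had a log2 change of -0.20, with SEs of 0.24 and 0.29, and overlapping groups. Leaving out 1 library gave -0.34 (Dyrk1b 2) to -0.12 (Dyrk1b 3) at the first and -0.30 (control 3) to -0.10 (control 1) at the second.

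Elf2 had 5 peaks, the most of any member, and their values went in both directions. The promoter peak (chromosome 3, 51247765 to 51248935) covers the outer window by distance to the start and held 82.1, 92.3 and 69.9 CPM in controls against 102, 87.1 and 99.8 CPM in the Dyrk1b group (log2 change 0.24 ± 0.22, adjusted p = 0.619 by edgeR). A single control library, control 2, exceeded the lowest Dyrk1b library, and the change was 0.15 without control 3. The peak 13.7 kb into intron 1 held 69.2, 60.7 and 41.7 CPM in controls against 49.1, 24.3 and 34.6 CPM in the Dyrk1b group, for a log2 change of -0.69 ± 0.29, with the lowest adjusted p of the 17 peaks (0.275).

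The other 3 Elf2 peaks lay together between 63131 and 64691 bases downstream of the outer start. The deposited annotation places a second transcript start 63248 bases downstream of the outer one, and the 2 RefSeq starts of Elf2 are 63130 bases apart, so the first of these peaks lies over the deposited inner start. The matching RefSeq window has the 6 ETS core matches. The peak over that start, classed as 5' UTR (51184715 to 51184953), had a log2 change of 0.18 ± 0.44, which was -0.35 without Dyrk1b 2, and held between 10 and 33 reads per library. The next (51184220 to 51184486, intron 4 of 9) held 11.7, 15.8 and 16.1 CPM in controls against 21.2, 29.8 and 18.4 CPM in the Dyrk1b group, so that the groups did not overlap (0.66 ± 0.47, adjusted p = 0.512 by edgeR, and 0.44 without Dyrk1b 2). This peak held between 10 and 27 reads per library, and its log2 change was 0.38 with loess scaling. The third, 64.5 kb from the outer start, had -0.30 ± 0.32, which was -0.51 without control 1 and -0.06 without control 3. Summed over its 5 peaks, Elf2 held 213 ± 10.4 CPM in controls against 209.9 ± 12.6 CPM in the Dyrk1b group (SD, n = 3 per group), a difference smaller than either spread.

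Elk3, the ternary complex factor, had a single peak, in intron 1 of 4 (chromosome 10, 93127186 to 93127591, 19.6 kb from the start). It held 28.1, 41.3 and 22.9 CPM in controls against 18.6, 14.3 and 16.9 CPM in the Dyrk1b group. All Dyrk1b libraries were below all controls, whose spread was wide (30.8 ± 9.50 against 16.6 ± 2.14 CPM, SD, n = 3 per group). The log2 change of -0.89 ± 0.40 was the lowest of the 18 peaks and did not pass (adjusted p = 0.306 by edgeR), and it was -0.62 without control 2.

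**Figure D4:**
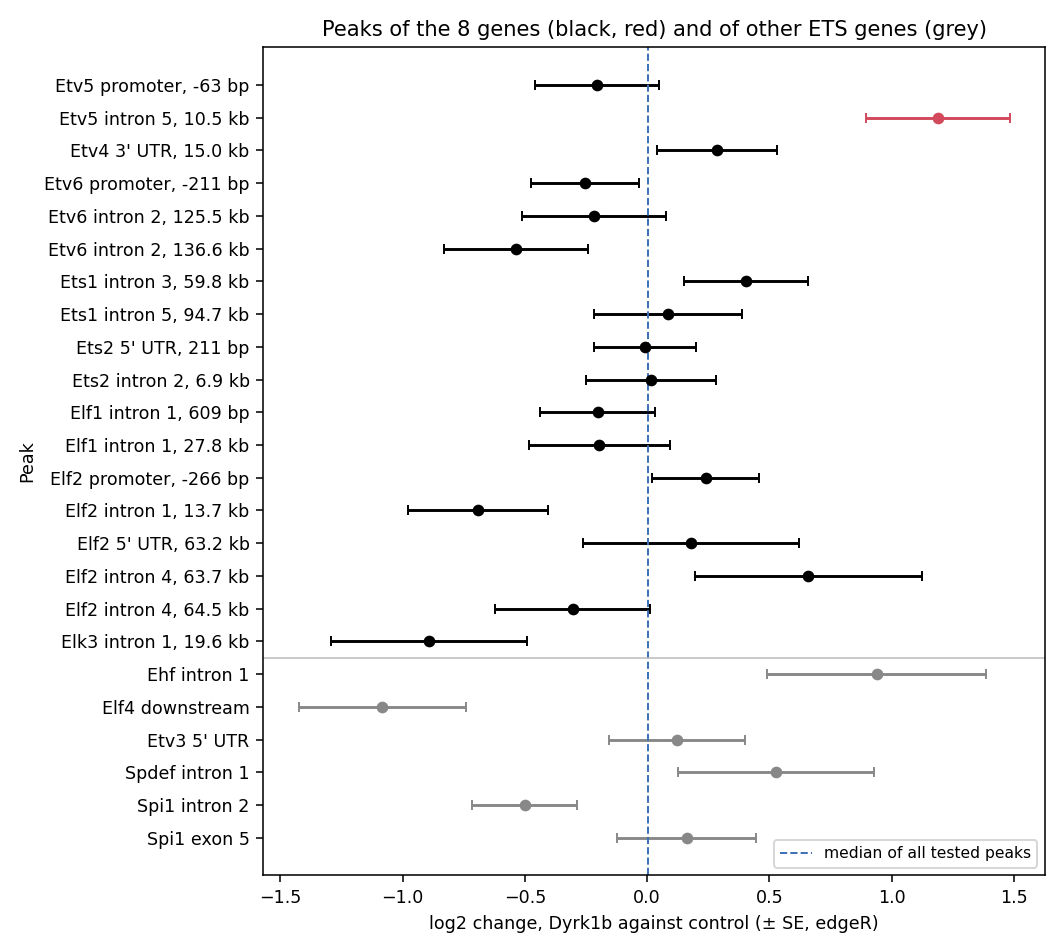
Fitted log2 change of Dyrk1b against control (± SE) for the 18 peaks of the 8 genes (black, with the Etv5 intron 5 peak in red) and for the 6 peaks of other ETS genes (grey); the dashed line is the median of all tested peaks. Apart from the Etv5 intron 5 peak, the values of the 8 genes run from -0.89 at Elk3 to 0.66 at Elf2.

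The order of levels within the family was read per kilobase of peak in controls, on the CPM scale. The peak at the Ets2 start was highest (104 ± 4.21 CPM per kb), followed by Ets2 intron 2 (96.6 ± 22.5), the outermost Elf2 intron 4 peak (91.7 ± 28.0) and the Etv5 promoter (88.2 ± 19.7). From the first to the 17th peak, the control values of neighbours in this order overlapped. The Etv5 intron 5 peak came last at 33.4 ± 7.48 CPM per kb and did not overlap the next one, the smaller Elf2 intron 4 peak at 54.7 ± 9.22. With Dyrk1b it held 76.8 ± 13.2 CPM per kb, beside a median of 78.0 ± 3.18 for the other 17 peaks, and it ranked 9th by group mean. The peak was chosen on the difference between these groups, so its place in either group is a description. Over all libraries the Etv5 intron 5 peak lay at percentile 16.8 of intron peaks by CPM per kb, and the other members lay at percentiles 21.8 to 85.03 of their own peak class. Peaks of the family were wider than usual, with a median of 635 bases beside 456 for all peaks.

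The peaks most like the Etv5 intron 5 peak were sought by Pearson's r of log2 CPM over the 6 libraries, among named genes outside the family. The 5 highest were at Ccdc116 (r = 0.997), Tmem160 (0.992), Dst (0.991), Tdrkh (0.99) and Plce1 (0.989), and 90 of 10373 genes had a peak above 0.95. All share the 6 libraries and the difference between groups that chose the Etv5 peak, so this is a description. The highest in this order, the 5' UTR peak of Ccdc116, had 26.3 ± 6.32 CPM in controls against 52.8 ± 8.55 CPM in the Dyrk1b group. Within the family, r was 0.945 for Ets1 intron 3 and 0.871 for the smaller Elf2 intron 4 peak, and it was -0.612 for the Etv5 promoter and -0.896 for Elk3.

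Other genes of the ETS family had few peaks. Of 17 further ETS genes, 5 had peaks, 6 in all, with 4 positive and 2 negative log2 changes, a median of 0.14 and 0 called by edgeR. At an unadjusted p under 0.05, 1 of the 6 was higher (6.44% of all peaks) and 2 were lower (7.72%), counts too small to set beside those shares. The lowest p were at Elf4, a factor of lymphoid cells (downstream peak on chromosome X, -1.08 ± 0.34), Spi1, which encodes the myeloid factor PU.1 (intron 2 of 3, -0.50 ± 0.21), and Ehf, an epithelial factor (intron 1 of 8, 0.94 ± 0.45). The Elf4 peak held 24.6, 55.9 and 56.5 CPM in controls against 26.5, 22.1 and 16.9 CPM in the Dyrk1b group, so that control 1 lay within the Dyrk1b range. The PEA3 gene Etv1 and the ternary complex factor genes Elk1 and Elk4 had no peak in the set analysed.

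Genes that feed back on or partner with ETS factors were taken from a list of 24, of which 17 had peaks. Of 64 peaks, 44 were positive (50.5% of all peaks were) and 20 negative, with a median of 0.19 and 0 called by edgeR. At an unadjusted p under 0.05, 3 of the 64 were higher (6.44% of all peaks) and 2 lower (7.72%). The groups lay apart at 9 of the 64 above and 1 below, beside 9.53% and 9.97% of all peaks. The log2 changes ran from -0.64 to 1.48, both at Fgfr2. The deposited annotation gives 38 of the 64 to Fgfr2, an FGF receptor gene, with listed distances to a start of up to 2.69 Mb. By position, the peaks in intron 2 of 6 are measured to another start than the 5' UTR peak and those in introns of 15. These distances therefore do not order the peaks along the gene. Without Fgfr2, a split made after the values were seen, 16 of 26 were positive with a median of 0.09. Of those 26, 1 lay apart above and 0 below. Among the lowest p was that of a peak given to Fgfr2 with a listed distance of 2603612 bases (intron 2 of 6, -0.64 ± 0.22). The Fgfr2 peaks measured to the start at the 5' UTR peak had positive values. These were 0.77 ± 0.45 at the 5' UTR, and 0.73 ± 0.34, 0.21 ± 0.29 and 0.13 ± 0.28 in introns 2, 3 and 4 of 15. Those in intron 2 of 6 had values in both directions. Also among the lowest was the promoter of Spred2, an inhibitor of ERK signalling (-0.49 ± 0.27). The adjusted p over all 64 were at least 0.209 by edgeR. Cic, which encodes a repressor of the PEA3 genes, had 1 peak (0.13 ± 0.34), and Dusp6 and Spry2, known ERK feedback genes, had none.

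Since several ETS genes mark endothelial and blood cells, markers of liver cell types were read in the same libraries. Of 6 hepatocyte marker peaks 5 were negative (median -0.28), and their sum was 238 to 380 CPM in controls against 260 to 299.9 CPM in the Dyrk1b group. Of 4 endothelial peaks, at Pecam1 and Stab2, 3 were positive (median 0.56), with sums of 110.2 to 121 CPM in controls against 136 to 163 CPM in the Dyrk1b group. Cdh5, Kdr, Tek and Lyve1 had no peak. Macrophage markers had 3 peaks, at Csf1r and at Spi1, whose peaks are also among those of the further ETS genes. Of these 3, 2 were positive (median 0.16), with sums of 164 to 206 CPM in controls against 162 to 185 CPM in the Dyrk1b group. The lymphocyte list had 1 peak, at Ebf1 (log2 change 1.37, 8.50 to 16.1 CPM against 27.9 to 33.0), the stellate list 1, at Lrat (0.74, 11.7 to 15.8 CPM against 20.7 to 23.9), and the cholangiocyte list none. Over all 9 peaks at non-hepatocyte markers 7 were positive (median 0.67), with sums of 300.04 to 352.2 CPM in controls against 351.7 to 400.3 CPM in the Dyrk1b group. Peaks were present at 6 of those 24 marker genes, and none of the marker peaks was called (lowest adjusted p 0.18 by edgeR). At an unadjusted p under 0.05, 2 of the 9 non-hepatocyte peaks were higher (6.44% of all peaks) and 1 was lower (7.72%). Of the 6 hepatocyte peaks, 0 were higher and 1 was lower. The endothelial sum and the single Ebf1 and Lrat peaks lay apart between the groups, higher with Dyrk1b, while the hepatocyte and macrophage sums overlapped. Of the 9 non-hepatocyte peaks, 4 lay apart above and 0 below, beside 9.53% and 9.97% of all peaks. Among the 6 hepatocyte peaks, 0 lay apart above and 1 below, at Fgb. Most of the listed non-hepatocyte genes had no peak. The part of cell types in the values of the ETS peaks was not tested.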

How the data were processed

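The authors deposited 1 table of 22412 merged peaks with whole read counts per peak and library, from which all levels and tests here come. Per the file headers it also holds RPKM values (reads scaled to peak length and a library total), the log2 ratio of the group means, and a p-value and FDR from a test that the file does not name. Per the submitters' processing notes, Bowtie2, ChIPseeker and DiffBind were used, and mm10 is listed as the build, which the deposited gene positions do not match. The sources used here do not give the peak caller, duplicate handling or any transposase shift. No deposited count is under 1.

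Counts were fitted for all peaks with edgeR 4.0.16 (R 4.3.3; TMM, filterByExpr, which left 22051 peaks and all 18 members, quasi-likelihood test, no covariate), and p was adjusted by Benjamini-Hochberg over all of them. The fit was tested on simulated data. Levels are CPM of reads in peaks. A promoter peak is of that class or within 3 kb of the start.

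Members and lists were chosen with earlier results of these data known. By rule the text gives library values for Etv5 intron 5, for each member's strongest promoter peak (or strongest peak), and for member peaks whose groups did not overlap. From the other lists it names the 3 genes with the lowest p, except 1 that is not reported here. Elf2 intron 1 and the other member peaks, the Fgfr2 peaks at its 5' UTR and in introns of 15, Cic, Igf2bp2 and Dgkg fall outside the rule. Alternatives were DESeq2 1.42.0, limma 3.58.1, 3 other scalings, no filter, a replicate block and leaving out each library.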

Additional observations from a re-analysis of the deposited data

How the results depend on the processing

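The log2 change of the Etv5 intron 5 peak stayed between 1.10 and 1.38 over 13 alternatives, and the log2 difference of its reads per 1000 reads in the other family peaks was 1.28, with 1.16 to 1.51 when 1 library was left out. No family peak was called under any of the 13, but DESeq2 could not call 11 of the 18. It gave those no adjusted p, the Etv5 intron 5 peak among them. The count over all peaks, 7, was 19 with DESeq2, 4 with library size only, 12 with loess, 1 with library totals and 2 with limma-trend, and it ran from 0 (without Dyrk1b 3) to 10 (without Dyrk1b 1). The family median of -0.10 was 0.062 with library totals and -0.16 to -0.011 with 1 library left out. Signs turned in 14 of 221 values, at 4 of 17 peaks. Ets2 5' UTR had 0.026 with library size only, 0.18 with loess and 0.15 with library totals, and -0.042 to 0.026 with 1 library left out. Elf2 5' UTR had -0.068 with loess and -0.35 to 0.46 with 1 library left out, Ets2 intron 2 -0.12 to 0.21, and Ets1 intron 5 -0.046 to 0.23. The causes were not tested. Samples share only their replicate numbers (correlations of same-numbered deviations -0.0098, -0.0144 and 0.0073): with the replicate block 7 peaks were called, 0 in the family, and the Etv5 intron 5 value was 1.19. The few reads per peak limit what single peaks can show.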
